A study of Drosophila melanogaster with 3 samples.

Results

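Strong BtbVII-eGFP peaks at the promoters of non-coding RNA genes were examined in Drosophila melanogaster embryos. A strong peak is a region of the optimal set. By its name, this is the authors' list of peaks thresholded on the irreproducible discovery rate (IDR), a measure of agreement between replicates. A peak was a member when its summit, the position of highest signal, lay within 500 bp of the nearest annotated transcription start site (TSS), that TSS belonged to a gene of biotype ncRNA, and no protein-coding TSS was equally near. The rule gave 184 members of 5219 strong peaks, at 165 genes. Of all strong peaks, 2578 had a summit within 500 bp of any TSS, and 2358 of these were at coding promoters and 36 at promoters of other genes. The members were split by whether the TSS nearest to the summit had a protein-coding TSS within 1000 bp, which held for 68 members and not for 116.

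The data are chromatin immunoprecipitation with sequencing (ChIP-seq) of 3 biological replicates, which form 1 group. Every sample came from whole embryos of both sexes, 0 to 24 h old, of 1 transgenic line that stably expresses BtbVII with GFP fused to its C terminus, and the antibody was against GFP, per the labels. No control group was given, so classes of promoters within the same libraries were compared, not conditions. Embryos of this age range hold many cell types and stages, and a region bound in a few cells cannot be told apart from one bound weakly in many.

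Long non-coding RNAs are transcripts without a long reading frame. Some act in the nucleus on chromatin or RNA processing, some are precursors of microRNAs, small nucleolar RNAs or piRNAs, and for most fly genes of this kind no function is established. Their promoters can stand alone or lie beside a coding promoter, either back to back (divergent) or with the non-coding transcript running antisense through the coding gene. BTB domains mediate contacts between proteins, and several fly BTB proteins, GAGA factor among them, bind DNA at promoters and regulatory elements.

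The sequences at the summits of 8 members show the DNA under the signal: the 3 of highest signal in each class and the 2 others with the most GAGAGA matches, among members from the chromosome arms 2L, 3L, 3R and X. Each is 201 bp long, with 100 bp to either side of the summit, and is written 5′ to 3′ on the strand of the non-coding gene, from the RefSeq Release 6 genome sequence (dm6 coordinates). Capitals mark every match to the words GAGAGA and CACACA and the TATA-box-like word TATAAA on either strand, so reverse complements are in capitals too, and overlapping matches run together. The first 3 genes have a coding TSS within 1000 bp: lncRNA:CR44149 (chr2L:9568633-9568833, minus strand), asRNA:CR44429 (chrX:15298388-15298588, minus strand) and lncRNA:CR43644 (chr3R:26021288-26021488, minus strand). The next 3 have none: lncRNA:CR31840 (chr2L:14023979-14024179, minus strand), lncRNA:CR31044 (chr3R:29214334-29214534, plus strand) and lncRNA:CR46036 (chr3R:17700425-17700625, plus strand). The last 2 hold the GAGAGA runs and have no coding TSS: lncRNA:CR46110 (chr3R:29774516-29774716, minus strand) and lncRNA:CR45354 (chr2L:16534269-16534469, minus strand).
lncRNA:CR44149: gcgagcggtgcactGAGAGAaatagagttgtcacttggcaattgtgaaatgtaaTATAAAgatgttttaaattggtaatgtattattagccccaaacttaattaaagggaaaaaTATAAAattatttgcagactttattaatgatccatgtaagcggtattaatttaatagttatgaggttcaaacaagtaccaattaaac
asRNA:CR44429: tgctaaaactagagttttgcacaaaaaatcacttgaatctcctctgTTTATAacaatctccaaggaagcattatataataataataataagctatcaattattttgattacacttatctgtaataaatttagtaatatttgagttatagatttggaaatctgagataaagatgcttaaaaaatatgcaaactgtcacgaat
lncRNA:CR43644: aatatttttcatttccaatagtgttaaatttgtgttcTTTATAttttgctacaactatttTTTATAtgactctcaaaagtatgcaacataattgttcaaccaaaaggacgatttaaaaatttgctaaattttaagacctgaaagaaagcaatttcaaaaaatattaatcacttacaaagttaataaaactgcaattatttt
lncRNA:CR31840: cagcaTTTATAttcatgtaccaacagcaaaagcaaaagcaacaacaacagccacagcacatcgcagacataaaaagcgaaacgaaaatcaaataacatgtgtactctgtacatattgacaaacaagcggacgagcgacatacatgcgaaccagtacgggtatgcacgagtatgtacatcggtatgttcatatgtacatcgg
lncRNA:CR31044: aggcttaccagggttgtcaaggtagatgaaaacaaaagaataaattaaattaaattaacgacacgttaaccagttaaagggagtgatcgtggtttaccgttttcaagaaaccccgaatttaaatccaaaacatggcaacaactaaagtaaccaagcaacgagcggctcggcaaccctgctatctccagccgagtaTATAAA
lncRNA:CR46036: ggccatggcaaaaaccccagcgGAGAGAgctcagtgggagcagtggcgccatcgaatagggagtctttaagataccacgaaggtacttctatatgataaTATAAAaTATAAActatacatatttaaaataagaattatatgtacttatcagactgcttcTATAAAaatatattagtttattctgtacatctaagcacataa
lncRNA:CR46110: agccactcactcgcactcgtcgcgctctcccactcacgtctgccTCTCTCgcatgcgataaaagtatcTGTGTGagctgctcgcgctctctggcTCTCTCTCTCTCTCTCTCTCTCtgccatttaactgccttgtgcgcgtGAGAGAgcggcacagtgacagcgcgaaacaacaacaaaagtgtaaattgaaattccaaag
lncRNA:CR45354: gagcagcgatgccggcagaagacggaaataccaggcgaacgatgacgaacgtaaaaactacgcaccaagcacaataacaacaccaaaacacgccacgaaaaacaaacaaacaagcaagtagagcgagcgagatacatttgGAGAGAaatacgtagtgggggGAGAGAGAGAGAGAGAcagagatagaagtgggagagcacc

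Each of the 6 sequences of highest signal holds TATAAA, a word present in 33.7% of all members. GAGAGA has 1 match each in lncRNA:CR44149 and lncRNA:CR46036 and 0 in the others of highest signal. With overlapping matches counted, lncRNA:CR46110 has 11 GAGAGA matches and lncRNA:CR45354 has 7. GAGAGA, the letters bound by GAGA factor, was present within 100 bp of the summit in 8 of 68 members with a coding TSS (11.8%) and 15 of 116 without (12.9%). Over all members the share was 12.5% (95% interval 8.09 to 18.2), against 14.5% of strong peaks at coding promoters and 13.5% of all strong peaks. TATAAA was present in 32.4% with and 34.5% without a coding TSS, against 31.7% at coding promoters. CACACA was present in 25% with and 19.0% without, against 19.1% at coding promoters. CAGGTA, a word bound by the early embryonic factor Zelda, was in 7.35% with and 3.45% without, against 4.16% at coding promoters. The DNA replication-related element TATCGATA was in 2 members with and 1 without, 1.63% of all members, against 3.99% at coding promoters. A run of 8 A was in 14.7% with and 13.8% without, against 13.0% at coding promoters. All 6 words were searched on both strands in windows of 201 bp, and the intervals of the 2 classes overlap for each of them. Median GC content was 37.8% in both classes and 38.3% at coding promoters.

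Of the 184 members, 126 were at genes with a symbol that starts with lncRNA and 44 at genes named as antisense RNAs (asRNA). The other members were 4 microRNA hairpins, 4 small nucleolar RNA host genes, 1 small nucleolar RNA gene and 5 entries of 21 to 23 bp with no symbol. The biotype is therefore wider than long non-coding RNA. A hairpin's start is a processing site and not a start of transcription, so these members are at promoters by the rule only. The same may hold for the entries of 21 to 23 bp, which include an entry each within lncRNA:CR43334 and lncRNA:CR43651, genes that hold microRNAs. Antisense genes made up 36 of the 68 members with a coding TSS and 8 of the 116 without. Genes named lncRNA made up 27 of the 68 and 99 of the 116. Members lay on all arms but none on chromosome 4, with 50 on 2R (27.2%, 95% interval 20.9 to 34.2) against 19.8% of all strong peaks.

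With the TSS window of 500 bp, a coding TSS within 1000 bp was more frequent among members than among weaker regions at the same kind of promoter. The share was 37.0% of members (exact Clopper-Pearson 95% interval 30.0 to 44.4), against 26.5% (23.0 to 30.2) of 596 ncRNA-promoter regions of the pooled list that were not strong and lay over 500 bp from any strong summit. Counted by gene and for any TSS of the gene, where members are counted by peak, it was 28.9% (27.31 to 30.45) of all 3261 ncRNA genes. Both intervals overlap slightly with that of the members. The weaker set leaves out regions near strong summits, and the effect of this on its share was not tested. The share of members depends on the TSS window, at 45.2% with 250 bp and 29.9% with 1000 bp. The share of weaker regions was not recomputed with these windows. The intervals cover counting error only, neighbouring peaks are not independent, and no test was made over regions. The coding TSS lay upstream on the other strand in 36 of the 68 (divergent), downstream on the other strand in 27, so that the coding gene runs towards the non-coding TSS, and on the same strand in 5. The median distance between both TSSs was 386 bp in members with a coding TSS, and 3550.5 bp to the nearest coding TSS in members without.

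Among pooled regions at ncRNA promoters, 184 of 827 were strong (22.2%, 19.5 to 25.2), against 17.4% of all pooled regions. With a coding TSS 68 of 248 were strong (27.4%, 22 to 33.4), and without one 116 of 579 (20%, 16.8 to 23.5). At coding promoters 2358 of 8259 were strong (28.6%, 27.6 to 29.5). Regions at ncRNA promoters without a coding TSS therefore had a lower strong share than coding promoters, with intervals that do not overlap, while regions with a coding TSS had a share near that of coding promoters.

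**Figure D1:**
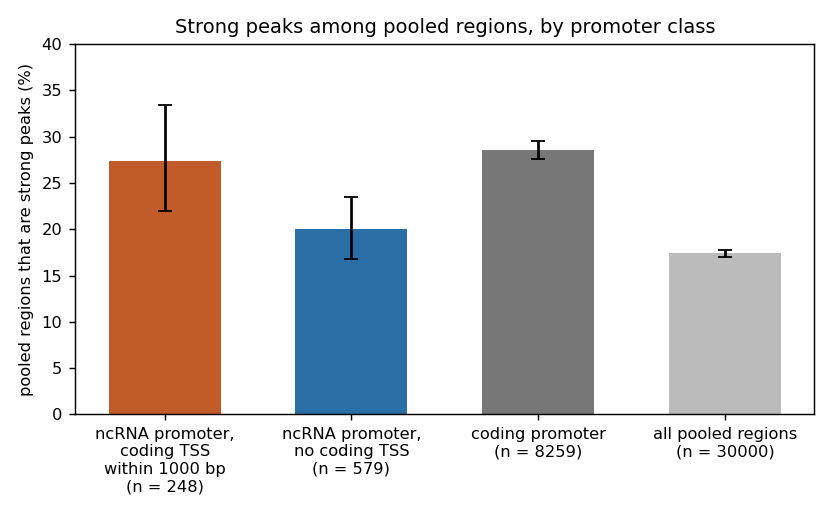
Share of regions of the pooled list that are strong peaks, in percent, at ncRNA promoters with and without a coding TSS within 1000 bp, at coding promoters and in the whole list. Error bars are exact 95% intervals over regions; the share is 27.4% with and 20% without a coding TSS.

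Counted by gene, 5.06% of the 3261 ncRNA genes had a member peak. Genes with a coding TSS within 1000 bp of any of their TSSs had one in 63 of 941 cases (6.70%, 5.18 to 8.49), and genes without in 102 of 2320 (4.40%, 3.60 to 5.31). These intervals overlap slightly. A peak chosen without 1 replicate is a strong peak with its summit in the 5219 regions of highest signal of both other replicates. The difference of 2.3 percentage points was 2.49 when the peaks were chosen without replicate 1, 1.68 without replicate 2 and 1.37 without replicate 3. This choice filters peaks by rank, and the pooled values still include all 3 replicates. When any strong summit within 500 bp counted, whichever TSS was nearest, the figures were 125 of 941 (13.3%, 11.2 to 15.6) with and 120 of 2320 (5.17%, 4.31 to 6.15) without. The larger number with a coding TSS includes peaks assigned to the neighbouring coding gene. Of 13945 protein-coding genes, 2639 (18.9%) had a strong summit within 500 bp.

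Among members, which all lie above the limit of the strong peaks, signal did not separate the classes. Members with a coding TSS had a lowest signal of 177.4, a median of 275.9 (233.5 to 332.0) and a highest of 1327, against 172.6, 280.0 (245.3 to 319.5) and 2352 in members without. The classes overlapped over nearly their whole ranges. The median at coding promoters was 268.3 (261.2 to 274.7). The 2609 strong peaks of highest signal held 37 of the 68 members with and 63 of the 116 without a coding TSS (54.4% and 54.3%). Of the 184 members, 12 (6.52%, 3.41 to 11.1) were among the 250 strong peaks of highest signal, 4 with and 8 without a coding TSS, and these 250 are 4.79% of all strong peaks. The median of members with minus that of members without a coding TSS, -4.19, had no stable sign: it was -41.4 when the peaks were chosen without replicate 1, 20.7 without replicate 2 and 10.1 without replicate 3. Signal is the authors' value for the region and was compared within the pooled list. Below the limit the classes did differ. The weaker regions at ncRNA promoters had medians of 90.2 (80.5 to 98.2) with and 74.0 (71.6 to 76.9) without a coding TSS.

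**Figure D2:**
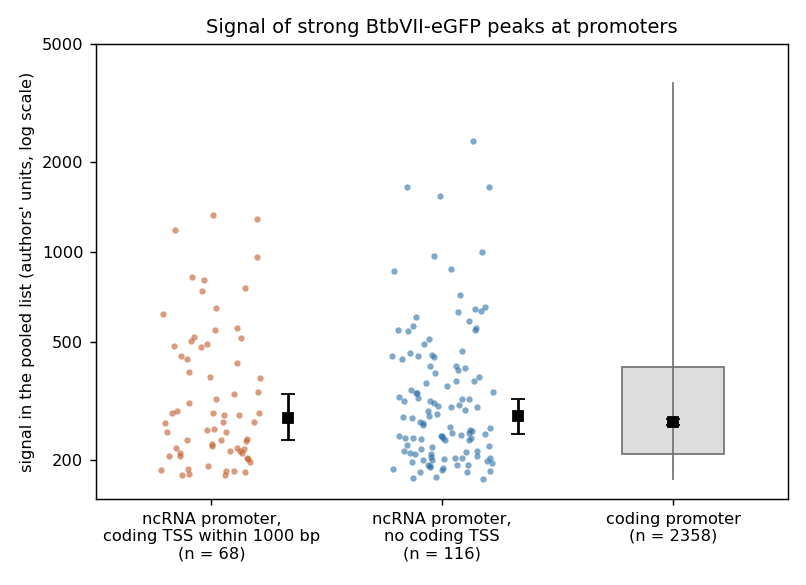
Signal of each member in the pooled list (log axis), with and without a coding TSS within 1000 bp, beside strong peaks at coding promoters, drawn as a box from the lower to the upper quartile with a line over the range. Black squares are medians with exact order-statistic 95% intervals; the medians are 275.9, 280.0 and 268.3.

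The strongest members with a coding TSS were beside genes of varied function. asRNA:CR45928 (2R, 23850271 to 23850553) reached 1327 in signal, and its ranks were 123, 53 and 115 in replicates 1, 2 and 3. Its summit lay 76 bp downstream of its TSS, which is 29 bp from the TSS of eIF6, a factor of large ribosomal subunit maturation. This was the highest signal of the class.

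lncRNA:CR44149 (2L, 9568518 to 9568918) reached 1289 in signal, with ranks of 95, 100 and 78, and starts 105 bp from brwl in the divergent direction. asRNA:CR44429 (X, 15298279 to 15298670) reached 1182, at ranks of 145, 99 and 147. It lies in gce, which encodes a juvenile hormone receptor, and its summit was 271 bp upstream of its own TSS and so further along the path of gce. Uhg4 (2R, 9095060 to 9095386, signal 961.8), a host gene of small nucleolar RNAs that guide ribosomal RNA modification, ranked 246, 179 and 228.

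asRNA:CR43257 beside Reg-5 reached 822.2, at ranks of 298, 277 and 379. lncRNA:CR30055 beside Sin3A, the scaffold of a histone deacetylase corepressor, had 804.3 and ranks of 317, 223 and 544. asRNA:CR44293 beside PCB, the gene for pyruvate carboxylase, had 755.5 and ranks of 223, 437 and 596. These 3 are divergent from their coding neighbour, at 397, 615 and 386 bp between TSSs.

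lncRNA:CR43644 (3R, 26021163 to 26021612, signal 737.1) lies 747 bp from E(spl)m3-HLH, a Notch-responsive bHLH repressor gene, and ranked 440, 332 and 333. asRNA:CR45908 in CG1943 had a signal of 649.9, asRNA:CR44892 in svr, a carboxypeptidase gene, had 621.0, and asRNA:CR45501 in parvin, a gene of integrin attachment sites, had 548.1. lncRNA:CR45668 beside Act5C, a cytoplasmic actin gene, had 554.3 and ranks of 780, 656 and 697. Of these 12, 8 were divergent, 4 had the coding TSS downstream on the other strand, and 10 summits were upstream of the non-coding TSS.

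The strongest members without a coding TSS reached higher values. lncRNA:CR31840 (2L, 14023890 to 14024356) reached 2352 in signal, and its ranks were 12, 8 and 5 in replicates 1, 2 and 3, with its summit 20 bp downstream of the TSS. Close by on 2L, lncRNA:CR45352 (14022119 to 14022511) reached 1003, at ranks of 168, 288 and 89. The replicates lay closer together on the first than on the second.

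lncRNA:CR31044 (3R, 29214270 to 29214607), which holds mir-279 and mir-996, microRNAs that restrain the formation of carbon-dioxide-sensing neurons, reached 1656, at ranks of 46, 35 and 53. lncRNA:CR44339 (2R, 12985018 to 12985410) had 1655 and ranks of 36, 50 and 39, and its nearest coding TSS, 4373 bp away, is that of the Polycomb group gene Psc. lncRNA:CR46036 (3R, 17700359 to 17700755) had 1545 and ranks of 30, 110 and 45, and lies within osa, which encodes a subunit of the Brahma chromatin remodelling complex. All 3 summits were upstream of the non-coding TSS, by 128, 174 and 216 bp.

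lncRNA:CR42657 (X, 9687581 to 9687891) reached 968.6, at ranks of 226, 183 and 213, with the CBP acetyltransferase gene nej 1123 bp away, just past the limit for a coding neighbour. lncRNA:CR45541 had 877.9, with the hexokinase gene Hex-A 1498 bp away, and lncRNA:CR44409 had 865.9 within Dif, an NF-kappa-B factor of innate immunity. lncRNA:CR44867 within beat-Ib had 653.4, lncRNA:CR43626, which holds mir-282, had 641.1, and lncRNA:CR44676 had 633.0. Hsromega, described next, completes these 12, of which 9 had the summit upstream. All 24 peaks were supported by every replicate, meaning that the summit lay in 1 of the 5219 regions of highest signal in each replicate's own list.

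**Figure D3:**
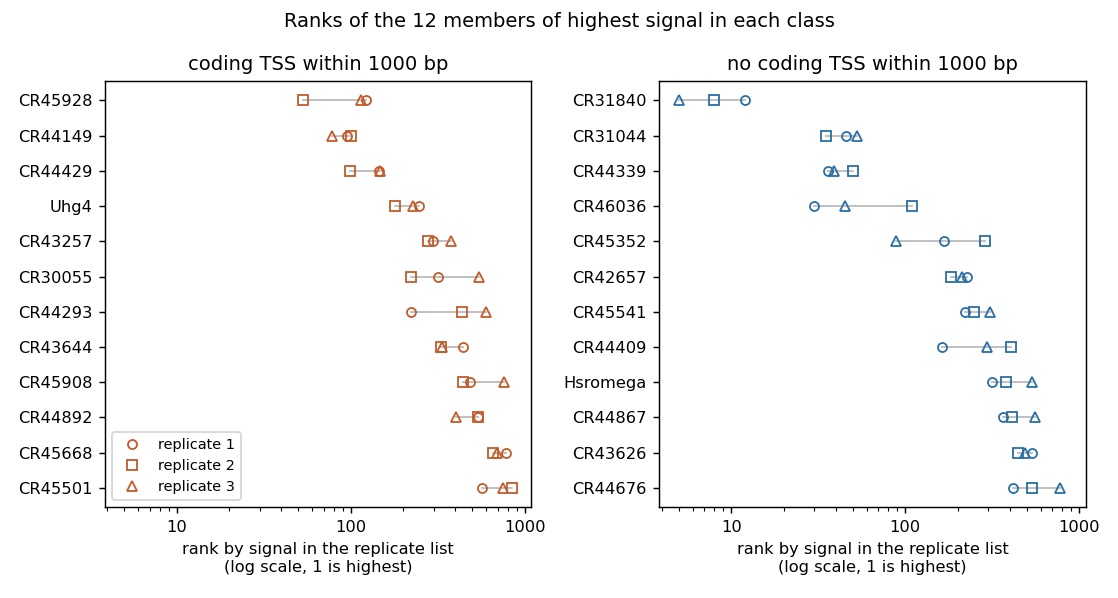
Rank by signal in each replicate list (log axis, 1 is highest) of the 12 members of highest signal with (left) and without (right) a coding TSS within 1000 bp. Symbols are replicates and grey lines join the lowest and highest rank of a member; CR31840 lies between 5 and 12 and CR45352 between 89 and 288.

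Of 43 non-coding genes with a name of their own, 3 carried a member (6.98%): Hsromega, flam and Eig63F-2. The share was 5.06% of all ncRNA genes and 6.17% of genes named lncRNA or asRNA. Hsromega, a stress-induced transcript that nucleates nuclear omega speckles, had a peak at 3R, 21296186 to 21296487 that reached 714.7, at ranks of 314, 382 and 539, its summit 217 bp upstream of the TSS. Its second peak, 18 bp upstream, had 175.8, close to the lowest signal of the strong peaks, 172.4, and ranks of 6181, 382 and 4090. Replicate 2 has 1 region over both summits, so its rank of 382 is the same value given again.

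The X-linked flam locus, a source of piRNAs against retrotransposons in ovarian follicle cells, had a peak at 21631545 to 21631994 with a signal of 268.6. Its summit was 121 bp upstream of the TSS and it ranked 1833, 3997 and 2665. The peak of Eig63F-2, an ecdysone-induced gene antisense to Eip63F-1, had 178.7 and ranked 6102, 3749 and 16050, so 1 replicate supported it. A further pair of named genes had a strong summit within 500 bp that was nearer to a coding TSS: enrr, at the 1471 peak of the neuronal gene elav, and Irar, at the 211.6 peak of the insulin receptor gene InR.

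The other named genes were below the strong peaks or had no pooled region within 500 bp of a TSS. The best region of marge had a signal of 159.2, that of bsAS 109.4, that of Vinr 105.8 and that of noe 63.7. iab8, the Hox-cluster transcript that holds a microRNA, had 96.8. Of the dosage compensation RNAs, roX2 had 95.1 and roX1 had no region in the list of 30000. The same was true of bxd, iab4, let7C, acal, cherub, yar, sphinx and CRG. A list of fixed length ends at some signal, so a gene without a region is only below that end.

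Genes that hold microRNAs carried members at a higher share than ncRNA genes as a whole. Of 37 such genes, 9 had a member (24.3%, 11.8 to 41.2), against 5.06% of all ncRNA genes and 6.17% of genes named lncRNA or asRNA. A pooled region was assigned to 64.9% of the 37, against 25.2% of genes named lncRNA or asRNA. Of the 9, 8 had no coding TSS within 1000 bp (88.9%), near the 32 of 37 of all these genes (86.5%). They are longer, with a median length of 6436 bp against 558 bp, and the part of length in this share was not tested. A further 15 had a pooled region that was not strong, and 13 had none.

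Beside lncRNA:CR31044, Hsromega and lncRNA:CR43626, the genes with members were the following. lncRNA:CR43651, which holds mir-14, a suppressor of cell death, reached 509.3, at ranks of 592, 781 and 720. asRNA:CR46194, which holds the mir-281 pair and has Oda 421 bp away on the same strand, had 421.9. lncRNA:CR43334, the host of bantam, a growth-promoting microRNA, had 3 members at 2 TSSs, of 309.6, 261.3 and 186.7. lncRNA:CR43650, the host of mir-8, had 281.6 and 182.6, also at 2 TSSs.

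lncRNA:CR43459, which holds mir-277 and mir-34, had 236.8, and lncRNA:CR46006, which holds mir-276a, had 203.6. Just below the strong peaks were lncRNA:CR43857 with mir-275 at 169.5 and lncRNA:CR43270 with mir-958 at 162.1. lncRNA:CR45361, the host of the muscle microRNA mir-1, had 54.3, the lowest among hosts with a region. The hairpins of mir-275 and mir-279 were themselves the nearest TSS of a member, at 276.8 and 204.0. The remaining hairpin members were mir-9378 at 465.6, which shares its position with another ncRNA gene, and mir-4949 at 214.2.

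**Figure D4:**
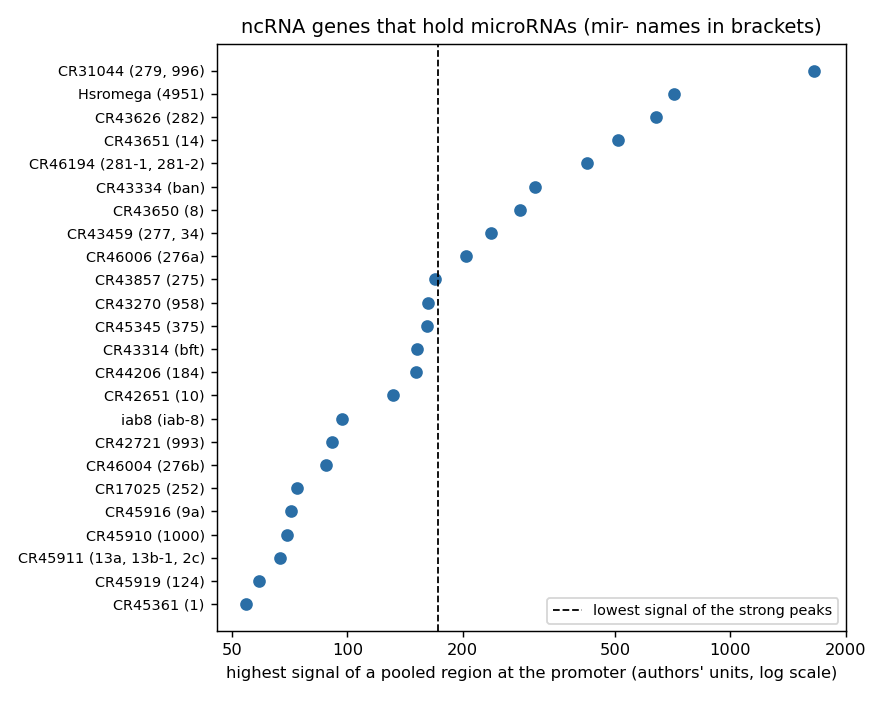
Highest signal of a pooled region assigned to the promoter of each ncRNA gene that holds a microRNA (log axis), for the 24 genes with such a region, with the microRNAs in brackets. The dashed line is the lowest signal of the strong peaks, 172.4; 9 genes lie above it, from 203.6 to 1656.

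Of 10 ncRNA genes that hold small nucleolar RNAs, 4 had a member (40%, 12.2 to 73.8), against 5.06% of all ncRNA genes. They were Uhg2, Uhg4, Uhg5 and Uhg8, each divergent from a coding gene. Of all 10, 5 have a coding TSS within 1000 bp, the fifth being Uhg1, which had no member. Uhg2 had a signal of 254.2, Uhg5 206.2 and Uhg8 196.3, all far below Uhg4 at 961.8. Their ranks were 5867, 2053 and 2146 for Uhg2, 2224, 14780 and 6240 for Uhg5, and 1789, 5888 and 12044 for Uhg8, so none of these 3 was supported by every replicate. Uhg1 and Uhg3 had regions at 154.4 and 142.4, under the strong peaks.

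Summits lay upstream of the non-coding TSS in 40 of 68 members with a coding TSS (58.8%, 46.2 to 70.6) and 75 of 116 without (64.7%, 55.2 to 73.3). The share over all members was 62.5% (55.1 to 69.5), against 69.0% at coding promoters and 50.5% of weaker regions at ncRNA promoters. The difference between the classes, -5.83 percentage points, was -9.97 with peaks chosen without replicate 1, -2.5 without replicate 2 and -9.57 without replicate 3. In divergent pairs 18 of 36 summits were upstream, which there means between both start sites. Where the coding TSS was downstream on the other strand, 19 of 27 were upstream (70.4%, 49.8 to 86.2).

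Members with a coding TSS had their summits closer to the non-coding TSS, at a median distance of 118.5 bp (77 to 156), against 233 bp (200 to 297) without. Within 100 bp lay 31 of 68 (45.6%, 33.5 to 58.1) and 24 of 116 (20.7%, 13.7 to 29.2), beside 38.6% at coding promoters. The rule contributes to this, since with a coding TSS nearby a summit far from the non-coding TSS is often nearer to the coding one and is then no member. The weaker regions, chosen by the same rule, had medians of 157.5 bp with and 248 bp without a coding TSS. The closest summits, 1 bp from the TSS, were those of lncRNA:CR45805 and mir-4949, and the farthest was that of lncRNA:CR44828 at 499 bp.

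**Figure D5:**
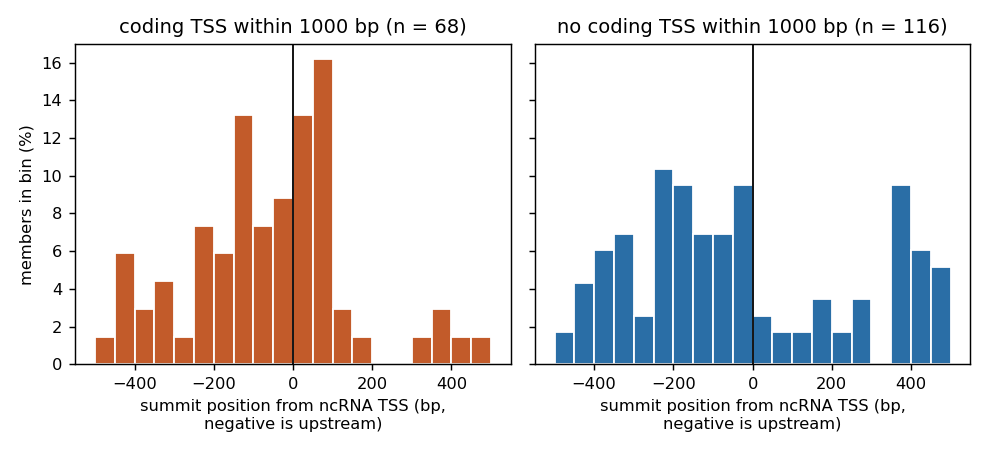
Position of member summits relative to the non-coding TSS in bins of 50 bp (negative is upstream), as a percentage of members with (left) and without (right) a coding TSS within 1000 bp. Upstream summits make up 58.8% with and 64.7% without a coding TSS, and summits with a coding TSS lie closer to the TSS.

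Summits lay inside a coding gene but outside its coding exons in 38 of 68 members with a coding TSS (55.9%, 43.3 to 67.9) and 33 of 116 without (28.4%, 20.5 to 37.6), against 58.7% of strong peaks at coding promoters and 66.7% of all strong peaks. Coding exons held 0 of 184 member summits (0 to 1.98%), which is near the 1.23% at coding promoters and the 0.939% of all strong peaks. Of the 68, 45 were also within 500 bp of the coding TSS. A further strong peak stood within 500 bp of the nearest coding TSS for 20 of 68 members with (29.4%, 19.0 to 41.7) and 40 of 116 without (34.5%, 25.9 to 43.9). This peak can be another member, as at asRNA:CR44293, where each of the peaks counts the other. Counted by gene, 18.9% of protein-coding genes had a strong summit within 500 bp of any of their TSSs.

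Member peaks of 1 gene usually stood side by side. The rule sets much of this, since every member at a given TSS lies within 500 bp of it. The 17 genes with more than 1 held 36 members, 15 genes with 2 and 2 genes with 3. The genes with 3 were lncRNA:CR45251 (605.3, 362.7 and 212.7) and lncRNA:CR43334. In 13 of the 17 the closest summits were 199 to 218 bp apart. No 2 strong summits in the whole set were closer than 199 bp, and 330 neighbouring pairs were 250 bp apart or less, so such pairs recur throughout the list. In replicate 1, 18 members shared a region with another member, in replicate 2 it was 14 and in replicate 3 it was 16.

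The widest differences within a pair were at lncRNA:CR31840 (2352 and 367.6), Hsromega (714.7 and 175.8) and lncRNA:CR46036 (1545 and 450.0). The peaks of lncRNA:CR31840 share 1 set of coordinates, as do those of lncRNA:CR46036. At lncRNA:CR44867 (653.4 and 546.1) the summits were 816 bp apart, on either side of the TSS, and every replicate supported both. At asRNA:CR44293 both peaks (755.5 and 503.5) had support from every replicate, but in replicate 3 the same region, of rank 596, holds both summits. At lncRNA:CR45668 the second peak (293.0) ranked 780, 1397 and 14167. Its rank of 780 in replicate 1 is that of a region that also holds the first summit.

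The remaining genes with 2 members had lower signals. lncRNA:CR45531 had 458.8 and 220.9, lncRNA:CR44380 had 448.2 and 203.6, and lncRNA:CR45642 had 402.2 and 234.9. asRNA:CR46093 had 332.0 and 248.4, lncRNA:CR44366 had 315.1 and 181.6, and lncRNA:CR43928 had 301.0 and 214.5. lncRNA:CR45375 had 248.3 and 186.3, and asRNA:CR46484 had 227.0 and 177.4. Another member stood within 2000 bp of 10 of 68 members with (14.7%, 7.28 to 25.4) and 36 of 116 without a coding TSS (31.0%, 22.8 to 40.3). The rule contributes to this too, since a neighbouring strong summit that is nearer to a coding TSS is no member.

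The replicates supported most members. All 3 supported 116 of 184 (63.0%, 55.6 to 70.0), against 58.9% of all strong peaks and 59.7% of those at coding promoters, so the share of members is near the background. By class it was 45 of 68 with (66.2%, 53.7 to 77.2) and 71 of 116 without a coding TSS (61.2%, 51.7 to 70.1). Exactly 2 replicates supported 54 members, 1 supported 14 and none was without support. Replicates 1 and 2 supported 162 members each (88.0%) and replicate 3 supported 146 (79.3%). The strong peaks come from a list pooled over these replicates, so part of this support is built in.

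Replicate 3 was the lowest for members without a coding TSS, at 88 of 116 (75.9%), and replicate 1 for members with one, at 56 of 68 (82.4%). A region of each replicate list held the summit in 180 of 184 cases. The exceptions were the second peak of lncRNA:CR46036 and lncRNA:CR42839 (replicate 3), the 332.0 peak of asRNA:CR46093 (replicate 2) and the 177.4 peak of asRNA:CR46484 (replicate 1). Among the 180, the highest of a member's 3 ranks was 2.27 times its lowest at the median, with quartiles of 1.56 and 3.48.

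Taken per replicate, members with a coding TSS had a median rank of 2418, 2097 and 2323.5 in replicates 1, 2 and 3, and members without 2324, 1936.5 and 2180.5. The rank number of members with a coding TSS was higher, meaning lower signal, in 3 of 3 replicates, by 132.5 ± 34.5 ranks on average (SD, n = 3). A two-sided exact sign-flip permutation test over the 3 replicates gave p = 0.25, the smallest it can give, so the design cannot pass 0.05. The sign turned when replicate 2 or 3 was left out of the choice of peaks (-35.8 and -149 ranks), and without replicate 1 the difference was 591 ranks. Each of these differences still averages the ranks of all 3 replicates. Set against strong peaks at coding promoters, all members had medians of 2345, 2068 and 2224.5, against 2311, 2321.5 and 2354, a mean difference of -116.3 ± 144.2 ranks (exact sign-flip p = 0.5, lower in 2 of 3 replicates).

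The members of lowest signal sat just above the limit of the optimal set. With a coding TSS they were asRNA:CR45121 (178.9), Eig63F-2 (178.7) and asRNA:CR46484 (177.4), and without one the second peak of Hsromega (175.8), asRNA:CR45371 (174.5) and lncRNA:CR45647 (172.6). The replicates spread widely on them: asRNA:CR45121 ranked 19285, 2833 and 4375, and asRNA:CR45371 ranked 3112, 7692 and 22393. The pooled regions just outside were at lncRNA:CR46021 (172.3), lncRNA:CR45377 (170.8) and lncRNA:CR44526 (170.0). At the 500 bp limit, lncRNA:CR44467 (497 bp) and lncRNA:CR44409 (493 bp) were inside, and lncRNA:CR45940 and a further peak of lncRNA:CR45668 (both 501 bp) were outside. At the 1000 bp limit for a coding TSS, asRNA:CR46484 (981 bp) and asRNA:CR44192 (966 bp) were inside, and lncRNA:CR42839 (1032 bp), lncRNA:CR45297 (1064 bp) and mir-275 (1071 bp) were outside.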

How the data were processed

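BtbVII-eGFP ChIP-seq region lists of 3 biological replicates were used on dm6: 3 replicate lists, 1 pooled list (30000 regions each) and the optimal set. Per the names the authors gave them, these are IDR input and IDR-thresholded peaks; the aligner, peak caller, their versions and the IDR threshold were not given in the sources used here. Per the deposited README files, the lists derive from the replicates' alignments and a further alignment. Each region has a signal value, a −log10 q-value and a summit offset, all as deposited by the authors; signal alone was used to rank, and only within a list. The lists on dm3 were not used. Read counts were not used here, so depth is unknown and intervals cover counting error only.

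Summits were placed on Ensembl release 115 gene models (BDGP6.54; 18164 genes, 13945 coding, 3261 ncRNA, 35497 transcripts, transposable elements left out) with Python 3.11.15, pandas 2.3.3, numpy 2.4.6 and scipy 1.17.1. The placement was tested on simulated data, and 200 of 200 planted summits were recovered. A gene held a microRNA or small nucleolar RNA when that gene lay within it on the same strand. Shares have exact Clopper-Pearson 95% intervals, medians have order-statistic intervals, and no test was made over regions. The only test was an exact sign-flip permutation over the 3 replicates. P-values then measure only the spread between these samples.

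Members named are the 12 highest and 3 lowest of each class, the summits nearest to and farthest from the TSS, genes with several members, genes with a name of their own, and genes that hold microRNAs or small nucleolar RNAs; genes at the limits and others with no member were named after their values were seen. The members, lists and words were chosen with earlier results of these data known. Alternatives were other windows (250 and 1000 bp), other coding distances (500 and 2000 bp, or from the summit), 1 TSS per gene and 1 summit per region. Peaks were also limited to the 2609 of highest signal, to those supported by every replicate, or, without each replicate, to those supported by both others. Further alternatives were other sequence windows, absent regions ranked last, and only genes named lncRNA or asRNA, the last added after the data were seen.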

Additional observations from a re-analysis of the deposited data

How the results depend on the processing

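The 184 members became 115 with a 250 bp window, 100 among the 2609 strong peaks of highest signal and 116 with support from every replicate; these settings keep fewer peaks by construction. The share with a coding TSS, 37%, was 45.2% with a 250 bp and 29.9% with a 1000 bp window, 24.5% with a coding distance of 500 bp and 52.2% with 2000 bp. Support by all replicates, 63%, was 90% among the 2609 strong peaks of highest signal. The rank difference of members with minus without a coding TSS, 132 ranks, turned to -45 with a 1000 bp window (exact sign-flip p = 0.75). It was -198 among the 2609 strong peaks of highest signal (exact sign-flip p = 0.25) and -38.7 among peaks supported by every replicate (exact sign-flip p = 0.5). With peaks chosen without each replicate in turn it ran from -149 to 591, and the cause was not tested. For signal, upstream share, gene share, GC content and GAGAGA share, the intervals of the classes with and without a coding TSS overlap, so staying inside them says little. The differences in summit distance and in summits inside coding genes, where the intervals do not overlap, were not recomputed under the alternatives. The median signal difference, -4.19, ran from -41.4 to 20.7 with peaks chosen without each replicate in turn. It was 40.9 among the 2609 strong peaks of highest signal and 11.6 among peaks supported by every replicate. The difference in GAGAGA share, -1.17 points, ran from -1.14 to 1.87 with peaks chosen without each replicate in turn and was 4.63 among those 2609. It was -7.32 with 1 TSS per gene and -6.19 with a sequence window of 250 bp to each side. The difference in median GC content, 0, ran from -1.4 with a sequence window of 250 bp to each side to 3.48 with a coding distance of 500 bp. The upstream difference stayed below 0, from -23.6 with a 250 bp window to -2.5 without replicate 2. The gene-level difference stayed above 0, from 1.01 with a 1000 bp window to 3.44 with a coding distance of 500 bp. Regions near the lowest signal of the strong peaks are the least certain, and depth, which is unknown, limits all of them. The replicates form 1 group, so no groups of samples could be paired; the classes of peaks were paired by replicate in the rank test.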
